A study of Gallus gallus with 2 samples.

Results

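Segmenting cells of the anterior presomitic mesoderm were taken as the cells in which RIPPLY2 and MESP1 together reached at least 1 molecule per 10000 gene molecules, and 473 of 12336 kept cells from chicken tails met this rule. They made up 3.83% of kept cells (95% exact binomial interval 3.50 to 4.19%). A cell was kept with at least 4000 gene molecules and at most 20% mitochondrial molecules. The segmenting cells were compared with 1749 posterior presomitic cells (TBX6 and MSGN1 together at 2 or more, RIPPLY2 and MESP1 under 1), with 804 somite cells and with all 11863 other kept cells, which include both of those sets. Somite cells had MEOX1 and TCF15 together at 3 or more, and each of RIPPLY2 with MESP1, TBX6 with MSGN1, and the sclerotome genes PAX1, PAX9 and NKX3-2 under 1.

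In vertebrate embryos the body axis is cut into somites by a clock of Notch, WNT and FGF signalling that oscillates in the presomitic mesoderm, a strip of tissue that matures from the tailbud forward. Where the falling posterior FGF and WNT signals reach a low level, Notch and TBX6 turn on MESP genes in the next prospective segment. RIPPLY proteins, known mainly from mouse and zebrafish, then help to remove TBX6 protein, which ends the presomitic state and helps place the segment border, while MEOX1, TCF15 and protocadherin PCDH8 accompany the change into an epithelial somite.

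The study profiled the posterior end of wild-type chicken embryos at the 35-somite stage, after 72 h of incubation, by single-cell RNA sequencing. Embryos were either controls or had received 20 uL of homocysteine, with 19 mM given as the high and 0.5 mM as the low dose. Cells of each tissue were tagged with lipid-anchored DNA barcodes, then pooled for 1 capture on the BD Rhapsody system, which pairs cells with beads in microwells. The labels give no treatment for a barcode, so the table was 1 pooled sample without replicates, treated and control embryos were not compared, and no test was made.

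The table held 60000 cell barcodes, 28190 gene columns and 513117076 gene molecules. Segmenting cells held 19350549 of these, with a median of 33677 molecules per cell (4083 to 127171), against medians of 30154 in posterior presomitic, 36749.5 in somite and 29809 in all other kept cells. Of the segmenting cells, 28.5% exceeded 50000 molecules and 46.5% carried 2 lipid barcodes, against 24.0% and 52.5% of posterior presomitic cells and 21.2% and 42.5% of all other kept cells. Such cells can hold 2 cells in 1 well, and no doublet caller was run. Levels below are molecules summed over a set of cells per 1000000 gene molecules of that set (CPM), with 95% exact Poisson intervals that cover counting error only. A gene counted as measured with 50 molecules and 10 CPM in 1 of both sets compared.

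The cells were chosen by the measured levels of RIPPLY2 and MESP1, so these values describe the choice and are no result. RIPPLY2 (chromosome 3, 77287041 to 77289104, RefSeq coordinates on GRCg7b as throughout) stood at 293 CPM (285 to 301) in segmenting cells, against 10.7 in posterior presomitic, 8.39 in somite and 4.04 in all other kept cells. MESP1 (chromosome 10, 20016921 to 20018416), which encodes a basic helix-loop-helix factor, stood at 81.3 CPM (77.3 to 85.4), against 3.46, 4.24 and 1.34 CPM in the same order of sets. RefSeq has a separate MESP2 gene beside it and gives MESP2 also as a synonym of MESP1. A column named MESP2 was not analysed here, and reads of the neighbours may not be told apart. Both rule genes were detected in 276 segmenting cells (58.4%), RIPPLY2 alone in 173 and MESP1 alone in 24. These sets had median depths of 41000, 27557 and 18735 molecules, and the part of depth in the detection was not tested.

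The summed rule level had a median of 2.24 per 10000 and reached 34.6. It rested on 1 molecule in 28 cells, whose depth ran from 4083 to 9864 molecules, and on 10 or more molecules in 234 cells. The 67 cells just inside the threshold, from 1 to under 1.2, had MEOX1 at 1373 CPM and PCDH8 at 520 CPM. The 83 cells just outside, from 0.8 to under 1, had MEOX1 at 1158 CPM and PCDH8 at 339 CPM. Both genes were thus somewhat higher just inside, while DLL1 was at 381 CPM inside and 375 CPM outside. Among erythroid cells, which should lack both genes, 0 of 192 met the rule, which allows a share of up to 1.90%, and their median depth was 21972.5 molecules. Among endothelial cells 1 of 270 met it (0.370%). In the barcodes with under 500 detected genes, RIPPLY2 was at 16.0 CPM and MESP1 at 5.41 CPM.

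The label was checked against MEOX1 and PCDH8, which the rule did not use. MEOX1 (chromosome 27, 3141121 to 3146700), a homeobox factor of early somites, was at 1628 CPM in segmenting cells, against 547 in posterior presomitic, 969 in somite and 212 in all other kept cells. The median cell held 15.6 MEOX1 molecules per 10000 (0 to 60.7) among segmenting cells and 1.91 (0 to 50.5) among posterior presomitic cells, so the ranges overlapped. After thinning each cell to 4000 molecules, MEOX1 was found in 92.4% of segmenting cells (95.8% unthinned), 52.9% of posterior presomitic cells (77.2%) and 4.17% of erythroid cells (13.5%). PCDH8 (chromosome 1, 165580780 to 165585023), a protocadherin linked to segment borders in mouse and frog, was at 628 CPM in segmenting cells, against 334 in posterior presomitic, 52.4 in somite and 74.6 in all other kept cells. Its thinned share was 65.5% in segmenting cells (89.0% unthinned), against 57.0% in posterior presomitic (87.2%), 11.3% in somite (43.8%) and 3.13% in erythroid cells (9.90%). Both markers were thus highest in segmenting cells among these sets. PCDH8 lay closer to the posterior presomitic level and MEOX1 closer to the level of somite cells. The somite cells were themselves chosen with MEOX1 and with low TBX6 and MSGN1.

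**Figure D1:**
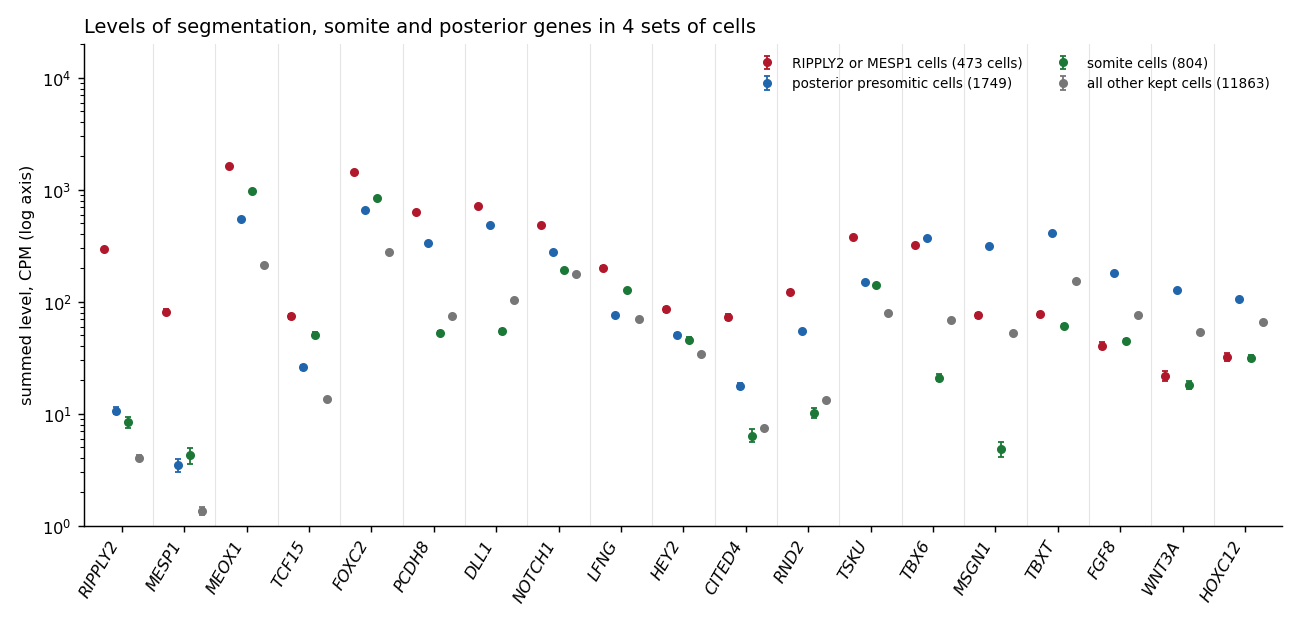
Summed level in CPM (log axis) of 19 genes in RIPPLY2 or MESP1 cells, which are the segmenting cells (red), posterior presomitic cells (blue), somite cells (green) and all other kept cells (grey), with 95% exact Poisson intervals that are often smaller than the points. TBX6, DLL1 and PCDH8 are high in segmenting and posterior presomitic cells, MEOX1, TCF15 and FOXC2 are highest in segmenting cells and next in somite cells, and TBXT, FGF8 and WNT3A lie near the somite level in segmenting cells.

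Against posterior presomitic cells, 68 of 8543 measured genes were 2-fold or more higher in segmenting cells (0.796%) and 82 were 2-fold or more lower (0.96%), together 1.76%, with the genes that define both sets left out. The median log2 ratio over all measured genes was 0.00. Somite genes were mostly higher. Of 37 listed somite genes, 23 were measured, 8 were 2-fold higher and 0 lower, with a median log2 ratio of 0.63. Besides MEOX1 at 2.98-fold, these included TCF15, a basic helix-loop-helix factor of somite epithelium, at 73.9 CPM in segmenting cells, against 25.9 CPM in posterior presomitic cells. FOXC2, a forkhead factor of paraxial mesoderm, was at 1443 CPM in segmenting cells, against 654 CPM in posterior presomitic cells. PAX7, known later from the dermomyotome, was at 166 CPM in segmenting cells against 54.5 CPM in posterior presomitic cells (3.05-fold). Further genes of the list passed 2-fold at lower levels. EBF2 stood at 75.6 against 29.2 CPM, TBX22 at 32.6 against 13.6 CPM, and DMRT2, needed for the dermomyotome in mouse, at 26.6 against 11.3 CPM in segmenting and posterior presomitic cells.

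**Figure D2:**
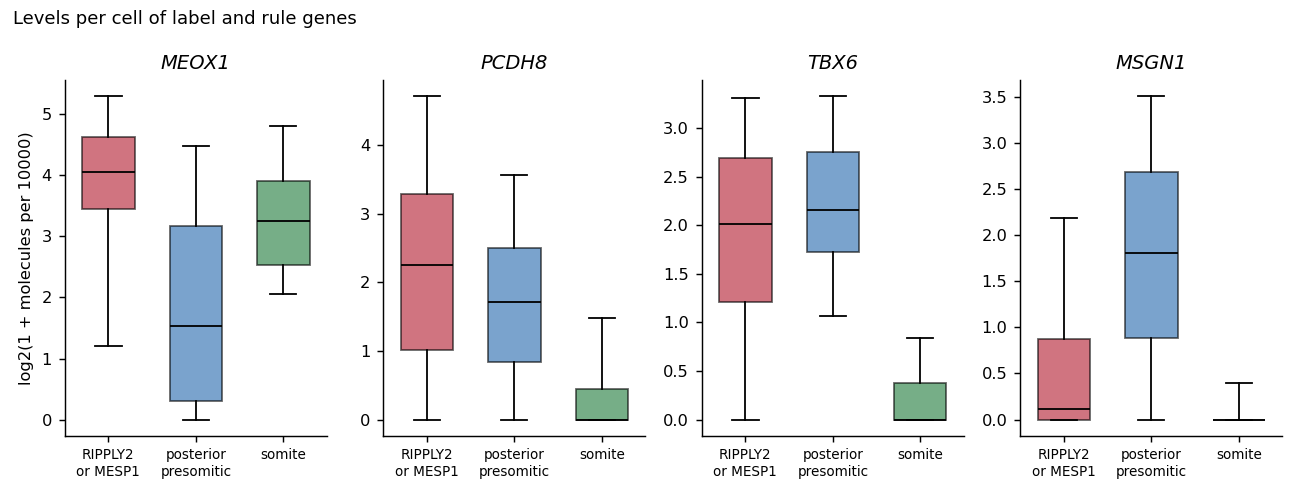
Level per cell as log2(1 + molecules per 10000) of MEOX1, PCDH8, TBX6 and MSGN1 in 473 segmenting (RIPPLY2 or MESP1), 1749 posterior presomitic and 804 somite cells; boxes span the quartiles with the median line, and whiskers the 5th to 95th percentile. TBX6 medians are 3.04 and 3.46 molecules per 10000 in segmenting and posterior presomitic cells, while MSGN1 medians are 0.08 and 2.51.

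The segmentation clock and Notch genes differed less. Of 32 listed genes, 27 had a column and 20 were measured against posterior presomitic cells, 1 was 2-fold higher, 1 was 2-fold lower, and the median log2 ratio was 0.13. The higher one was LFNG (chromosome 14, 3230059 to 3240435), a glycosyltransferase that modifies Notch and oscillates in chick, at 202 CPM in segmenting cells, against 76.1 in posterior presomitic and 127 in somite cells. The lower one was AXIN2, a feedback target of WNT, at 23.4 CPM in segmenting cells and 49.7 CPM in posterior presomitic cells. The Notch ligand DLL1 was at 720 CPM in segmenting cells against 487 in posterior presomitic cells (1.48-fold), and the receptor NOTCH1 at 482 against 280 CPM (1.72-fold). Among targets of Notch, HEY2 was at 85.5 CPM in segmenting cells and 50.8 CPM in posterior presomitic cells, HES4 at 284 and 206 CPM, HES1 at 170 and 188 CPM, and NRARP at 220 and 245 CPM. Over all segmenting cells, ligand, receptor and HEY2 were thus higher by under 2-fold, while HES1 and NRARP lay slightly lower. Posterior presomitic cells were chosen with TBX6 and MSGN1 at 2 or more, a limit not set on segmenting cells. The 310 segmenting cells that met it had DLL1 at 996, NOTCH1 at 582 and HEY2 at 99.9 CPM. These 310 cells had HES1 at 181 and NRARP at 272 CPM. The part of this choice in the ratios to posterior presomitic cells was not tested.

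Of 30 listed genes of segment border and polarity, 17 were measured and FOXC2 alone was 2-fold higher. The ephrin ligand EFNB2 was at 128 CPM in segmenting cells, against 67.8 in posterior presomitic and 69.3 in somite cells. EPHA4, a receptor for ephrins at somite borders, was at 109 CPM in segmenting cells against 90.1 CPM in posterior presomitic cells. UNCX and TBX18, which mark compartments of the somite, were rare in segmenting cells. UNCX, a gene of the posterior somite compartment, was at 0.672 CPM in segmenting cells, against 0.440 in posterior presomitic and 5.68 in somite cells. TBX18, a gene of the anterior somite compartment, was at 5.58 CPM in segmenting cells against 2.70 CPM in posterior presomitic cells, and its direction turned round under 3 alternatives (closing section).

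The largest ratios to posterior presomitic cells among genes with a symbol and at least 20 CPM lay mostly outside these lists. CITED4 (chromosome 23, 1769424 to 1771635), a coactivator that binds CBP and p300, was at 73.0 CPM in segmenting cells, against 17.7 in posterior presomitic and 6.39 in somite cells (4.13-fold over posterior presomitic). The neuropeptide gene NPY was at 202 CPM in segmenting cells, against 55.0 in posterior presomitic and 116 in somite cells. Next in order came LZTS1, the cadherin CDH20, AOAH, the tetraspanin CD82 and FGFRL1, an FGF receptor that lacks the kinase domain, at 149 CPM in segmenting cells against 47.0 CPM in posterior presomitic cells. The guidance ligand NTN1 was at 512 CPM in segmenting cells against 166 CPM in posterior presomitic cells. SHISA2, which dampens FGF and WNT receptors and promotes segmental maturation in frog, was at 735 CPM in segmenting cells, against 256 in posterior presomitic and 848 in somite cells. FOXL1, FMOD and TMEM47 completed the 15 highest with PAX7, MEOX1 and TCF15.

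A gene column without a symbol had the highest ratio of all measured genes. ENSGALG00010015903, which was not matched in the RefSeq table, was at 151 CPM (146 to 157) in segmenting cells, against 5.22 in posterior presomitic, 2.85 in somite and 1.61 in all other kept cells. Its log2 ratio to posterior presomitic cells was 4.86 (4.69 to 5.02), and the next highest gene had 2.14. A molecule was found in 242 segmenting cells (51.2%), against 114 posterior presomitic cells (6.52%), 77 somite cells (9.58%) and 2 erythroid cells (1.04%). Of the 175 kept cells with at least 1 per 10000 of this gene, 140 (80.0%) were segmenting cells. It was at 195 CPM in segmenting cells with both rule genes, 61.3 CPM in those with RIPPLY2 alone and 17.1 CPM in those with MESP1 alone. The last value rests on 9 molecules in 24 cells (7.82 to 32.5 CPM). Median depth in the same order was 41000, 27557 and 18735 molecules, and its part in these levels was not tested. The ratio held in cells of each barcode, with log2 values of 4.84 in SBC2, 4.50 in SBC3 and 5.24 in SBC7. The column was singled out after its values were seen, and its genome position is not given in the sources used here. Whether it lies beside or overlaps RIPPLY2 or MESP1 is therefore not known, and if it shares reads with either, its levels would in part follow from the rule.

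The genes lower in segmenting cells were led by tailbud and posterior signals. Of 31 listed posterior and tailbud genes, 26 were measured, 10 were 2-fold lower and 0 higher, and the median log2 ratio was -0.81. WNT3A, a ligand of the tailbud, was at 21.7 CPM in segmenting cells, against 126 in posterior presomitic and 18.1 in somite cells (5.83-fold lower than posterior presomitic). TBXT, the mesoderm factor Brachyury, was at 77.6 CPM in segmenting cells, against 414 in posterior presomitic and 60.7 in somite cells. FGF8 was at 40.6 CPM in segmenting cells, against 181 in posterior presomitic and 44.6 in somite cells. These 3 genes stood in segmenting cells close to their somite level. FGF19, FGF3 and FGF4, ligands encoded side by side on chromosome 5, were at 6.82, 11.1 and 2.64 CPM in segmenting cells, against 38.2, 42.7 and 13.3 CPM in posterior presomitic cells. WNT8A, WNT5A, CDX4 and EVX1 were the other genes of the list at 2-fold lower, while the ligand FGF18 was at 118 CPM in segmenting cells and 153 CPM in posterior presomitic cells. In the 310 segmenting cells with TBX6 and MSGN1 at 2 or more, FGF18 was at 163 CPM. Outside the list, RHOV, which encodes a small GTPase, was at 5.79 CPM in segmenting cells against 28.0 CPM in posterior presomitic cells.

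Feedback and target genes of these pathways differed in both directions, with a median log2 ratio of -0.44 over the FGF list and 0.05 over the WNT list. In the FGF feedback list, 15 genes were measured, SPRY2 was 2-fold lower (48.2 CPM in segmenting and 113 CPM in posterior presomitic cells) and FGFRL1 2-fold higher. ETV4, an FGF effector, was at 126 CPM in segmenting cells against 130 CPM in posterior presomitic cells. In the WNT list, 19 genes were measured and 2 were 2-fold lower, AXIN2 and the receptor FZD10, at 77.7 CPM in segmenting cells and 213 CPM in posterior presomitic cells. LEF1, a nuclear partner of WNT signalling, was at 372 CPM in segmenting cells against 276 CPM in posterior presomitic cells. In the retinoic acid list, 0 of 11 measured genes passed 2-fold. Since 1.76% of all measured genes did, few or none would be expected in a list of this size. The synthesis enzyme ALDH1A2 was at 116 CPM in segmenting cells, against 97.4 in posterior presomitic and 236 in somite cells.

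HOX genes of groups 8 to 13, which set position along the axis, lay lower together. Of 17 measured genes, 5 were 2-fold lower in segmenting than in posterior presomitic cells and 0 higher, with log2 ratios from -1.74 to -0.03 and a median of -0.64. Summed over the list, they stood at 2498 CPM in segmenting cells, against 3970 in posterior presomitic and 2549 in somite cells. HOXC13 was at 12.5 CPM in segmenting cells and 41.7 CPM in posterior presomitic cells, and HOXC12 at 32.1 and 105 CPM. The log2 ratio of HOXD12 was -1.44 in SBC2, -0.98 in SBC3 and -0.77 in SBC7, against -2.44 in cells assigned to no barcode. HOXD11 had -1.24, -0.83 and -0.69, against -1.74 in the unassigned cells. HOXC12 and HOXC13 passed 2-fold in SBC2 and SBC3 but had -0.81 and -0.39 in SBC7. HOXC10 was at 488 CPM in segmenting cells against 593 CPM in posterior presomitic cells. Against somite cells, 0 of the 17 measured genes differed by 2-fold. Since 2.24% of all measured genes did, a list of this size would hold few or none. Log2 ratios of the 17 genes to somite cells ran from -0.68 to 0.21, with a median of -0.06. These HOX genes thus lay near their somite level in segmenting cells, while 4 of 24 measured posterior and tailbud genes (FGF18, CDX4, LEF1 and RSPO3) were 2-fold higher in segmenting than in somite cells and 0 were lower.

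The counts of 68 higher and 82 lower genes moved up or down with the set of cells left out. Without cells above 50000 molecules they were 146 and 177, without cells high in genes of other cell types 124 and 152, and without cells of 2 lipid barcodes 40 and 46. With at most 10% mitochondrial molecules, which left 72 segmenting cells, they were 41 and 28. Of 51 named genes past 2-fold, 48 kept their direction at most 10% mitochondrial molecules, 50 with MESP1 alone, 49 of 50 with a value within SBC2 and within SBC7, and all 51 under each of the other 10 alternatives. Fewer stayed past 2-fold: 31 at most 10% mitochondrial molecules, 29 of 50 in SBC7, 39 of 50 in SBC2, 41 without cells of 2 lipid barcodes, and 43 to 51 under the others. The 51 include RIPPLY2 and MESP1, whose direction follows from the choice of cells. MSGN1 is also among them, and the posterior presomitic cells were chosen with it. In the 310 segmenting cells with TBX6 and MSGN1 at 2 or more, MSGN1 was at 120 CPM and TBX6 at 470 CPM. In posterior presomitic cells they were at 314 and 371 CPM. The part of the choice in the MSGN1 ratio was not tested. Many of the other named genes were picked by their ratio in these same cells, so the counts are a description only.

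Barcodes gave separately labelled pools of cells, although none can be assigned to a treatment. Segmenting cells numbered 40 of 1416 kept cells of SBC2 (2.82%, 2.03 to 3.83), 171 of 4373 of SBC3 (3.91%, 3.36 to 4.53) and 52 of 1551 of SBC7 (3.35%, 2.51 to 4.37), and the intervals overlapped. Posterior presomitic cells made up 7.06%, 15.3% and 7.54% of kept cells of SBC2, SBC3 and SBC7. Of segmenting and posterior presomitic cells together, segmenting cells were 28.6% (21.3 to 36.8), 20.4% (17.7 to 23.3) and 30.8% (23.9 to 38.3). By this share the intervals of SBC3 and SBC7 did not overlap. All these intervals cover counting error only, and cells are not replicates. A further 210 segmenting cells could not be assigned to 1 barcode. All 68 higher genes were higher than in posterior presomitic cells within each of the 3 barcodes, and 81 of the 82 lower genes were lower within each, while 38.4% of all measured genes had the same sign in all 3. The 68 and 82 genes were picked from a pool that holds these same cells, so the shared sign is partly built in and is a description only. Past 2-fold in each barcode were 26 of the 68 and 11 of the 82.

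**Figure D3:**
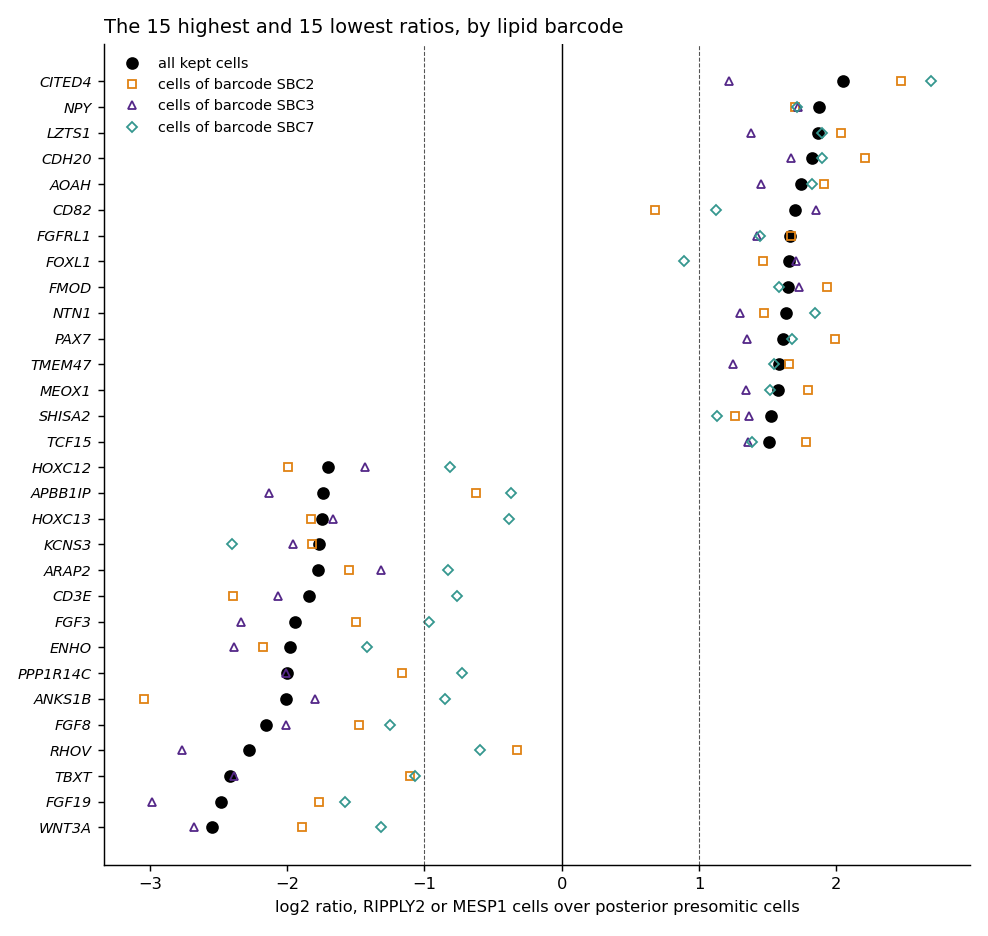
Log2 ratio of segmenting (RIPPLY2 or MESP1) cells over posterior presomitic cells for the 15 genes with the highest and the 15 with the lowest ratio, over all kept cells (black) and within cells of SBC2, SBC3 and SBC7 (open symbols); dashed lines mark 2-fold. Every open symbol lies on the side of its black point, and for TBXT, RHOV and WNT3A the ratios of SBC2 and SBC7 lie nearer to 0.

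The sizes differed among barcodes. MEOX1 had log2 ratios of 1.79 in SBC2, 1.34 in SBC3 and 1.51 in SBC7, and NPY had 1.70, 1.72 and 1.71. CITED4 was less even, with 2.47 in SBC2, 1.22 in SBC3 and 2.69 in SBC7, and LFNG had 1.44, 0.91 and 2.05. TBXT had -1.10 in SBC2, -2.38 in SBC3 and -1.06 in SBC7, against -2.41 over all kept cells and -3.15 in cells assigned to no barcode. SPRY2 had -0.88, -1.03 and -0.59, against -1.68 in the unassigned cells. FZD10 had -0.99, -1.43 and -0.71, against -1.77 in the unassigned cells. AXIN2 had -0.80, -1.21 and -0.43, against -1.21 in the unassigned cells, so it passed 2-fold in SBC3 but not in SBC2 or SBC7. In SBC2, SBC3 and SBC7, TBXT was at 140, 67.6 and 99.5 CPM in segmenting cells, against 301, 353 and 208 CPM in posterior presomitic cells. Median depth in segmenting cells was 34258.5 molecules in SBC2, 39363 in SBC3 and 67881.5 in SBC7, and its part in these ratios was not tested.

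Against somite cells, 114 of 8558 measured genes were 2-fold or more higher in segmenting cells (1.33%) and 78 were 2-fold or more lower (0.911%). DLL1 and PCDH8, both also high in posterior presomitic cells, had the highest ratios among genes with a symbol and at least 20 CPM. DLL1 was at 720 CPM in segmenting cells against 54.4 CPM in somite cells (13.2-fold), PCDH8 was 12.0-fold higher, and RND2, which encodes a small GTPase, was at 121 against 10.2 CPM. The secreted factors FGF18 and WNT11 were 8.22-fold and 4.73-fold higher than in somite cells, and the homeobox gene VENTX was 5.02-fold higher. RSPO3, a secreted enhancer of WNT signalling, was at 334 CPM in segmenting cells and 99.5 CPM in somite cells. In somite cells these ligand genes were thus several-fold lower. Somite cells were chosen with TBX6 and MSGN1 under 1, a limit not set on segmenting cells. Within segmenting cells, DLL1, PCDH8, RND2, FGF18, WNT11, VENTX and RSPO3 were all higher where TBX6 and MSGN1 reached 2 or more. The part of this choice in the ratios to somite cells, here and elsewhere in the text, was not tested.

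The genes lower than in somite cells included ALDH1A3, an enzyme of retinoic acid synthesis, at 5.74 CPM in segmenting and 30.5 CPM in somite cells. CYP1B1 was at 31.7 CPM in segmenting cells against 153 CPM in somite cells. In the somite list, 21 genes were measured, and TWIST2, SIM1 and FST were 2-fold lower, with FST, an activin and BMP antagonist, at 24.1 CPM in segmenting cells and 53.1 CPM in somite cells. The globin genes HBBA, HBA1, HBZ and HBAD, related genes whose reads may in part be split, were also lower. HBBA stood at 24.4 CPM in segmenting and 101 CPM in somite cells. HBBA was at 2192 CPM in the barcodes with under 500 genes, and the part of free RNA in this difference was not tested. The 114 and 78 genes became 174 and 173 without cells above 50000 molecules, and 78 became 177 without cells high in genes of other types.

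Over 8395 genes measured against both neighbours, 20 (0.238%) were 2-fold higher in segmenting cells than in either, and 0 were 2-fold lower than in either. They included ENSGALG00010015903, CITED4, RND2, LZTS1, CD82 and INSYN2A, the last at 19.4 CPM in segmenting cells, against 4.38 in posterior presomitic and 3.03 in somite cells. TSKU and SMOC1, secreted proteins known to oppose BMP signalling, belonged to the 20. TSKU was at 377 CPM in segmenting cells, against 149 in posterior presomitic and 141 in somite cells. SMOC1 was at 227 CPM in segmenting cells, against 105 in posterior presomitic and 96.1 in somite cells. MICAL2, an enzyme that oxidises actin, was at 27.4 CPM in segmenting cells, against 10.7 in posterior presomitic and 6.18 in somite cells. DMRT1, a neighbour of DMRT2 on chromosome Z, was at 123 CPM in segmenting cells, against 50.7 in posterior presomitic and 53.0 in somite cells. Only 2 genes were 2-fold above posterior presomitic and 2-fold below somite cells, PENK and MAFA, while 6 were 2-fold below posterior presomitic and 2-fold above somite cells, among them CDX4 at 56.1 CPM in segmenting cells, against 158 in posterior presomitic and 21.0 in somite cells. Several of these genes were chosen after their values were seen.

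**Figure D4:**
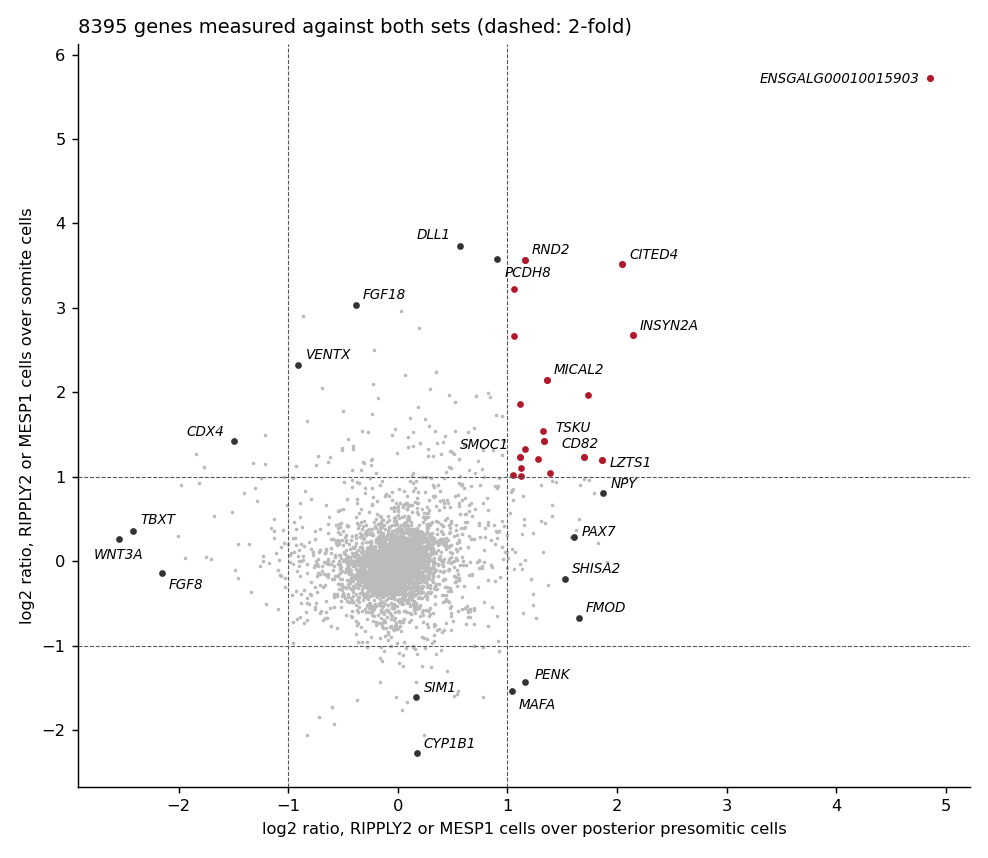
Log2 ratio of segmenting (RIPPLY2 or MESP1) cells over posterior presomitic cells (x axis) and over somite cells (y axis) for 8395 measured genes; dashed lines mark 2-fold, and red points are the 20 genes at or above 2-fold on both axes. ENSGALG00010015903 lies apart at 4.86 and 5.72, DLL1 and PCDH8 are high against somite cells only, and WNT3A, TBXT and FGF8 are low against posterior presomitic cells only.

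Against all other kept cells, 189 of 8809 measured genes were 2-fold or more higher (2.15%) and 277 were 2-fold or more lower (3.14%), together 5.29%. Among genes with a symbol and at least 20 CPM, CITED4 had the highest ratio at 9.87-fold, followed by RND2 at 9.20-fold, PCDH8 at 8.41-fold, NPY at 8.04-fold and MEOX1 at 7.67-fold. DLL1 was 6.92-fold and FOXC2 5.21-fold higher. TBX6 was at 318 CPM in segmenting cells against 68.3 CPM in all other kept cells, and MSGN1 at 75.5 against 52.1 CPM.

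Genes that define other cell types were low. Of 29 such genes, 26 had a column, 15 were measured against all other kept cells, 12 were 2-fold lower and PAX2, a gene of the intermediate mesoderm, was 2-fold higher, at 103 CPM in segmenting cells against 47.3 CPM in all other kept cells. Summed over the list, they stood at 643 CPM in segmenting cells, against 637 in posterior presomitic, 882 in somite and 3537 in all other kept cells. No gene of this list was at 0 in segmenting cells. The endothelial cadherin CDH5 was at 1.14 CPM in segmenting cells against 22.7 CPM in all other kept cells, SOX2 of the neural tube at 24.1 against 67.5 CPM, and HBBA at 24.4 against 942 CPM. By cell, 40.4% of segmenting cells had a summed level of at least 5 per 10000 of these genes, against 33.0% of posterior presomitic, 45.6% of somite and 72.1% of all other kept cells. Without such cells the share of segmenting cells among kept cells was 7.85%.

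Segmenting cells were not uniform in the genes of the posterior state. TBX6 and MSGN1 reached 2 or more per 10000 in 310 cells (65.5%) and stayed under 2 in 163. TBX6 was at 318 CPM in segmenting cells against 371 CPM in posterior presomitic cells. MSGN1, a target of WNT signalling that marks the posterior presomitic mesoderm, was at 75.5 CPM in segmenting cells against 314 CPM in posterior presomitic cells, which were chosen with both genes. MSGN1 had no molecule in 236 segmenting cells (49.9%) and in 213 posterior presomitic cells (12.2%). MEOX1 and TCF15 reached 3 or more in 443 segmenting cells (93.7%), and 302 (63.8%) met both conditions. Most segmenting cells thus held posterior presomitic and somite genes under the same cell barcode, and the part of doublets in this was not tested. Posterior presomitic cells also held MEOX1, with a median of 1.91 and an upper quartile of 8.04 molecules per 10000. Their share meeting both conditions is not given here, so the overlap is not shown to be particular to segmenting cells.

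Between cells with TBX6 and MSGN1 at 2 or more and cells under 2, 96 of 8569 measured genes were 2-fold or more higher (1.12%) and 106 were 2-fold or more lower (1.24%), with the genes of the split left out. The cells under 2 still held TBX6 at 88.9 CPM, against 470 CPM in the cells at 2 or more. DLL1 was at 996 CPM in the cells at 2 or more, against 304 CPM in the cells under 2. PCDH8 was at 816 against 343 CPM, RND2 at 166 against 53.1 CPM, CITED4 at 98.1 against 35.0 CPM, VENTX at 240 against 55.5 CPM and FGF18 at 163 against 48.4 CPM. MESP1 was at 103 CPM in the cells at 2 or more and 48.4 CPM in the cells under 2, and RIPPLY2 at 326 and 244 CPM. MEOX1 was at 1900 and 1218 CPM, so the somite gene was also higher in the cells with more of the posterior genes.

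Markers of other types moved with this split. A summed level of at least 5 per 10000 was found in 29.7% of the 310 cells with TBX6 and MSGN1 at 2 or more and in 60.7% of the 163 under 2. Cells above 50000 molecules made up 21.3% and 42.3% of the same sets. The genes lower in the 310 cells included SHH, at 6.87 CPM against 39.3 CPM in the 163 cells, and LMO2, at 7.64 against 36.3 CPM. Among the 282 cells low in genes of other types, 218 had TBX6 and MSGN1 at 2 or more and 64 under 2. Between these sets the log2 ratio of LMO2 was -0.29, with an interval of -1.07 to 0.54. The endothelial gene EGFL7 had -0.04 (-0.71 to 0.66), but KDR, also endothelial, had -2.04 (-2.75 to -1.36). SHH, one of the genes used to choose the 282 cells, still had -1.20 (-2.15 to -0.22). Some markers of other types thus remained lower in the cells with TBX6 and MSGN1 at 2 or more. In these 282 cells PENK was at 5.67 CPM in the cells at 2 or more and 67.0 CPM in the cells under 2, OSR1 at 14.7 and 86.1 CPM, and MAFA at 9.93 and 75.7 CPM. DLL1 was at 1142 and 225 CPM and PCDH8 at 733 and 160 CPM in these sets, so both differences were larger than over all segmenting cells, while the log2 ratio of MEOX1 was 0.28.

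**Figure D5:**
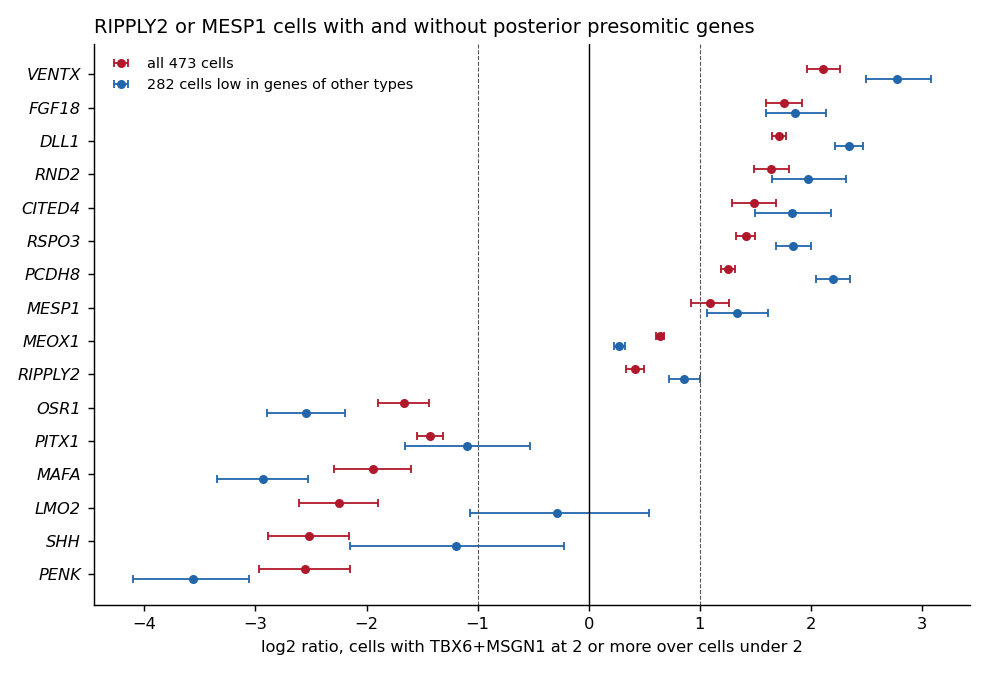
Log2 ratio of segmenting (RIPPLY2 or MESP1) cells with TBX6 and MSGN1 at 2 or more over those under 2, with 95% exact intervals for counting error, over all 473 cells (red) and over the 282 cells low in genes of other types (blue). SHH and PITX1 are among the genes used to choose the 282 cells, so their blue values depend in part on that choice. DLL1, PCDH8, CITED4 and RND2 lie right of 2-fold in both. In the cells low in genes of other types the interval of LMO2 spans 0, whereas that of SHH stays below 0.

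The 37 segmenting cells with a rule level of 10 or more per 10000 had MEOX1 at 2390 CPM, PCDH8 at 1147 CPM, DLL1 at 1518 CPM and LFNG at 461 CPM, each above its level over all segmenting cells. In these cells TBX6 was at 388 CPM and MSGN1 at 30.9 CPM, the MSGN1 value under its level of 75.5 CPM over all segmenting cells. The 28 cells whose rule level rested on 1 molecule had MEOX1 at 901 CPM and PCDH8 at 111 CPM. The depth of the 28 cells is bounded by the rule, since 1 molecule reaches the threshold only under 10000 molecules.

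In several other gene groups no gene differed by 2-fold from posterior presomitic cells, and since 1.76% of all measured genes did, lists of this size would hold few or none. In segmenting cells 0 genes passed 2-fold in either direction among 24 measured genes of homocysteine and folate metabolism, 15 of glycolysis, 24 of S phase, 21 of G2 or M phase, 16 of stress and apoptosis, 17 of BMP and TGF-beta signalling and 10 of hedgehog signalling. CTH, an enzyme that breaks down cystathionine made from homocysteine, was at 226 CPM in segmenting cells and 273 CPM in posterior presomitic cells. AHCY, which makes homocysteine from its adenosyl form, was at 199 and 206 CPM. The median log2 ratio was -0.04 over the homocysteine and folate list and -0.09 over the glycolysis list. In the epithelial and mesenchymal list, 0 of 33 measured genes passed 2-fold, with CDH2, the main cadherin of epithelial somites, at 279 CPM in segmenting cells, against 337 in posterior presomitic and 215 in somite cells.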

How the data were processed

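Counts came from BD Rhapsody's own pipeline (version 1.11), per the file headers, run by the authors against GRCg7b with Ensembl release 107 annotation, with intronic reads included and the number of cells set to exactly 60000. Each deposited count is a number of molecules, not scaled for depth. Whether counting used strand is not given in the sources used here, so genes that overlap on opposite strands cannot be told apart. Of 28190 gene columns, 12399 matched a RefSeq symbol of GRCg7b and 15073 carry only an Ensembl identifier.

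The 2 libraries, transcriptome and lipid barcodes, come from the same pooled cells in 1 table, so no cell barcode is shared between separate samples. Barcode columns SBC2, SBC3 and SBC7 were used, and 3 further barcode columns were not used. A cell was assigned to a barcode with at least 10 molecules and 3 times every other used barcode. Kept cells were chosen by depth (44506 cell barcodes left out) and mitochondrial molecules (3158 left out for this alone).

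Molecules were summed per set of cells, with exact Poisson, exact binomial (Clopper-Pearson) and exact conditional intervals at 95%, which cover counting error only. A gene counted as called at 2-fold, and a sum of 0 was set to 3 molecules. Shares were also computed after thinning cells to 4000 molecules. The ratios of summed molecules and their intervals were checked on simulated sums with known changes. The choice of cells, the thinning and the barcode assignment were not part of this check. Python 3.11.15, numpy 2.4.6, scipy 1.17.1 and matplotlib 3.10.9 were used. No doublet caller was run. Removing cells above 50000 molecules, cells of 2 lipid barcodes, or cells high in genes of other types served as alternatives.

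The members, the gene lists and the tests were chosen with earlier results of these data known. Named genes were all genes of the rule, clock and border lists, the 4 genes with the largest ratio of each other list, and the 15 highest and 15 lowest ratios to posterior presomitic cells and 15 highest ratios to all other kept cells, among genes with a symbol and at least 20 CPM. Genes named for the somite comparison, the 20 genes above both neighbours, the split by TBX6 and MSGN1 and a few list members given for context fall outside this rule and were chosen after their values were seen. 1 gene of the somite list is not reported here.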

Additional observations from a re-analysis of the deposited data

How the results depend on the processing

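No paired analysis was possible because all cells form 1 pooled sample with no replicates. The share of segmenting cells, 3.83% of kept cells, was 2.12% at a threshold of 2 per 10000, 3.14% with RIPPLY2 alone, 1.15% with MESP1 alone, 3.49% without cells above 50000 molecules, 7.85% without cells high in genes of other types, 2.82% in SBC2 and 3.35% in SBC7. The counts of genes 2-fold higher and lower than in posterior presomitic cells (68 and 82) were 41 and 28 at most 10% mitochondrial molecules, 146 and 177 without cells above 50000 molecules, 40 and 46 without cells of 2 lipid barcodes, 124 and 152 without cells high in genes of other types, and 128 and 309 with no minimum CPM. The lower count was 134 in SBC2 and 29 in SBC7. Against all other kept cells (189 and 277), the lower count was 168 at most 10% mitochondrial molecules, 508 without cells above 50000 molecules and 140 in SBC7, and both counts were 304 and 516 in SBC2 and 543 and 2089 with no minimum CPM. Against somite cells (114 and 78, alternatives chosen after seeing the data), the higher count was 65 at most 10% mitochondrial molecules, the lower count 147 with MESP1 alone and 177 without cells high in genes of other types, and both counts were 174 and 173 without cells above 50000 molecules, 73 and 118 in SBC2 and 188 and 179 with no minimum CPM. With no minimum CPM the change comes from the larger number of genes counted; otherwise the cause was not tested. Of the named genes, TBX18 turned round to log2 ratios of -0.82 with MESP1 alone, -0.44 at most 10% mitochondrial molecules and -0.12 in SBC2, MFNG to -0.24 at most 10% mitochondrial molecules, and AMN to 0.34 there and 0.21 in SBC7; each of these values rests on at most 9 molecules in segmenting cells. With sets chosen on a random part of each cell's molecules and read from the remaining part, of equal expected size, segmenting cells had RIPPLY2 at 267 CPM, against 13.6 CPM in posterior presomitic cells, MEOX1 at 1522 against 568 CPM and PCDH8 at 560 against 348 CPM. The log2 ratio of ENSGALG00010015903 ran from 4.50 to 5.97 over 14 alternatives. Genes under 50 molecules or 10 CPM in both sets were too rare to compare at this depth.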
